A study of Mus musculus with 2 samples.

Results

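The 4 class III POU genes, Pou3f1, Pou3f2, Pou3f3 and Pou3f4, were described in total RNA-seq of mouse forebrain at embryonic day 11.5 and set against Pou2f1 and Pou4f1, which belong to other classes of the POU family. The 6 genes were chosen by name, and all 6 were found among 43346 Ensembl genes of the deposited gene tables. The study had 1 group, forebrain of strain B6NCrl in healthy embryos of pooled sex, and 2 libraries. Replicate 1 came from 109 embryos and replicate 2 from 88 embryos, so each library is an average over many animals and over every cell type of the dissected tissue. With no second condition and 2 libraries, no test over samples was possible, and values are given per library with their SD (n = 2 throughout).

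POU proteins bind DNA through a bipartite domain, a POU-specific domain joined by a linker to a POU homeodomain, and many recognise the octamer motif or variants of it. Class III members are the POU factors best known from the developing nervous system. Pou3f2 (Brn2) and Pou3f3 (Brn1) act with overlapping function in neural progenitors and in the production and migration of cortical projection neurons, and Pou3f2 is also needed for neuroendocrine neurons of the hypothalamus. Pou3f1 (Oct6, Scip) is best known for timing the myelination programme of Schwann cells and is also expressed in epidermis and early forebrain. Pou3f4 (Brn4) is X-linked and acts in the mesenchyme around the inner ear and in the developing striatum and hypothalamus. Pou2f1 (Oct1) is a broadly expressed octamer-binding factor of histone and small nuclear RNA genes. Pou4f1 (Brn3a) marks sensory ganglia, retinal ganglion cells, the habenula and parts of the midbrain.

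All 4 class III genes are single-exon genes with 1 deposited transcript each, a structure shared by 1238 of 21474 protein-coding genes (5.77%). Pou3f1 lies on the plus strand at chr4:124656807-124660655, Pou3f2 on the minus strand at chr4:22482780-22488366, Pou3f3 on the plus strand at chr1:42695768-42703176 and Pou3f4 on the plus strand at chrX:110814280-110817207, all in GRCm38. Pou2f1, on the minus strand at chr1:165865154-166002678, has 18 deposited transcripts with up to 17 exons. Pou4f1, on the minus strand at chr14:104461676-104467999, has 2 deposited transcripts. Because reads of similar paralogs can be assigned to the wrong gene, the coding sequences were aligned. The stretch most alike among the class III genes covers 120 coding bases (40 codons), and it is shown because it is where reads of the 4 genes would be hardest to tell apart. Capitals mark a base that no other class III gene has at that place.
Pou3f1: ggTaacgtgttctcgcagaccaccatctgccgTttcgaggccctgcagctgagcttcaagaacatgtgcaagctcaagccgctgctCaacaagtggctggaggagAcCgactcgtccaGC
Pou3f2: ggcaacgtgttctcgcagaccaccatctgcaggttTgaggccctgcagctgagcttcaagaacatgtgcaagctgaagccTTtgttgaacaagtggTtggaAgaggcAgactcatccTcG
Pou3f3: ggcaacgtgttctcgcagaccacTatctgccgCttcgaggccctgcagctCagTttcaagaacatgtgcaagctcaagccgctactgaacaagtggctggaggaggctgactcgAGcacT
Pou3f4: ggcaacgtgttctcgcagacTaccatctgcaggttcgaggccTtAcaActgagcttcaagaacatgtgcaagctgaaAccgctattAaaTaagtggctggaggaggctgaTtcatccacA
Pou2f1: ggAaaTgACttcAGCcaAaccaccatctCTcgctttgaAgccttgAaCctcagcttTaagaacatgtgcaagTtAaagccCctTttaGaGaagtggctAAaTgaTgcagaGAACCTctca
Pou4f1: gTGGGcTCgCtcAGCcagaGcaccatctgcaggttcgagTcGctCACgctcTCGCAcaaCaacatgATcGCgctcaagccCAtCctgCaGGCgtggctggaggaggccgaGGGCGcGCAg
These stretches are codons 283 to 322 of Pou3f1 (chr4:124658553-124658672, plus strand), 302 to 341 of Pou3f2 (chr4:22487109-22487228, minus strand), 349 to 388 of Pou3f3 (chr1:42698190-42698309, plus strand) and 224 to 263 of Pou3f4 (chrX:110815134-110815253, plus strand). In Pou2f1 the stretch is split between exons (codons 342 to 381, minus strand, within chr1:165896572-165897733), and in Pou4f1 it is codons 303 to 342 (chr14:104465969-104466088, minus strand). Of the 120 bases, 90 were identical in all 4 class III genes and 50 in all 6 genes. Each class III gene had 7 to 9 bases that no other class III gene has at that place, against 30 bases found in no class III gene in Pou2f1 and 41 in Pou4f1. Over the whole coding sequence, the 6 class III pairs were 63.9% to 70.9% identical, against 48.6% to 57.0% for the 8 pairs of a class III gene with Pou2f1 or Pou4f1. Over whole transcripts, untranslated parts included and in either orientation, the longest run of identical bases in any class III pair was 38. It was 24 between a class III gene and Pou2f1 or Pou4f1.

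The coding part is the smaller part of each class III transcript. It took 35.1% of Pou3f1, 23.9% of Pou3f2, 20.2% of Pou3f3 and 37.1% of Pou3f4, so most of their annotated length is untranslated. The 4 differed widely in base composition. GC content of the transcript was 63.9% in Pou3f1, above 99.2% of the 21428 coding transcripts compared, against 44.4% in Pou3f2, 51.1% in Pou3f3 and 51.8% in Pou3f4, and the median of all was 49.1%. The coding sequence alone was richer in GC in each of the 4, at 72.8%, 65.8%, 71.0% and 57.0% in Pou3f1, Pou3f2, Pou3f3 and Pou3f4.

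Summed gene counts were 23165260 in replicate 1 and 33597028 in replicate 2, and spike-in RNAs took 5.66% and 5.49% of all counts. All 8 listed forebrain markers reached 1 TPM (a level scaled for transcript length and for the total of its library) in both libraries, among them Lhx2 at 154.28 and 138.82 TPM, Emx2 at 60.39 and 62.56 TPM and Otx2 at 55.49 and 59.64 TPM in replicates 1 and 2. Over all genes, the spread between the libraries beyond counting error was small, with a common biological coefficient of variation of 7.63% in edgeR.

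All 4 class III genes, and all 6 members, reached 1 TPM in both libraries, as did 58.6% of protein-coding genes. Pou4f1 did so only through a short non-coding transcript, and with transcripts of 1000 bases or more alone it had 0.81 and 0.83 TPM. Pou3f2 and Pou3f3 were the more abundant class III genes and Pou3f1 and Pou3f4 the less abundant. Pou3f3 had 22.5 TPM in replicate 1 and 23.14 TPM in replicate 2, a mean of 22.82 ± 0.453 (SD), from 2515 and 3740 expected counts. Pou3f2 had 21.07 and 25.09 TPM, a mean of 23.08 ± 2.84, from 1768 and 3044 expected counts. The pair changed places between the libraries, with Pou3f3 higher by 1.43 TPM in replicate 1 and Pou3f2 higher by 1.95 TPM in replicate 2, so their levels did not differ beyond their spread.

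Pou3f1, the factor of the myelination programme, had 9.21 and 6.76 TPM (7.985 ± 1.73), from 528 and 560.77 expected counts. Pou3f4, the X-linked member, had 8 and 6.59 TPM (7.295 ± 0.997), from 346 and 412 expected counts. Pou3f1 was ahead by 1.21 TPM in replicate 1 and by 0.17 TPM in replicate 2, and the ranges overlapped, so this pair was not separated either. Between the pairs there was a clear gap, as Pou3f3 exceeded Pou3f1 by 13.29 and 16.38 TPM. In bulk tissue, fewer cells that express a gene and less RNA per cell cannot be told apart, so none of these levels says how widely a gene is expressed.

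Of the summed class III TPM, Pou3f2 and Pou3f3 together made up 71.7% in replicate 1 and 78.3% in replicate 2 (75.0% ± 4.69). Pou3f2 alone held 34.7% and 40.7%, Pou3f3 37.0% and 37.6%, Pou3f1 15.2% and 11.0% and Pou3f4 13.2% and 10.7%. The share of Pou3f3 was the steadiest of the 4, with an SD of 0.395 percentage points, against 4.30 for Pou3f2, 2.95 for Pou3f1 and 1.74 for Pou3f4. Among protein-coding genes ordered by mean TPM, Pou3f2 stood above 72.5% of genes, Pou3f3 above 72.3%, Pou3f1 above 57.0% and Pou3f4 above 56.0%.

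**Figure D1:**
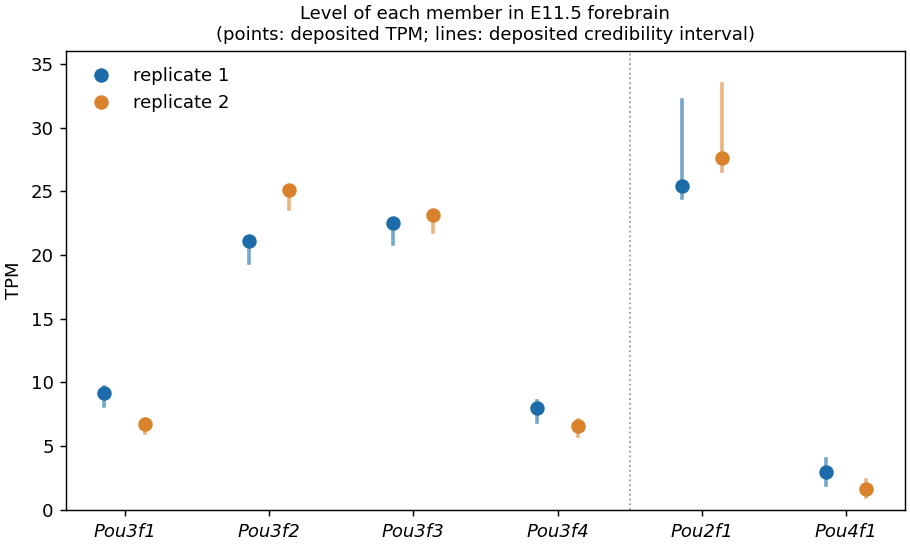
Level of each gene in TPM (y axis) in replicate 1 and replicate 2, with points for the deposited TPM and lines for the deposited credibility interval (its level is not stated); the dotted line parts the class III genes from Pou2f1 and Pou4f1. Pou3f2 and Pou3f3 sit between 21.07 and 25.09 TPM in both libraries, Pou3f1 and Pou3f4 between 6.59 and 9.21 TPM.

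Pou2f1 had the highest gene-level TPM of the 6, at 25.43 and 27.64 TPM (26.535 ± 1.56), from 1065.93 and 1614.13 expected counts. It exceeded Pou3f2, the next in the order, by 4.36 and 2.55 TPM, and the deposited credibility intervals of the pair did not overlap in either library. Pou4f1 was the lowest, at 2.98 and 1.62 TPM (2.30 ± 0.962), from 77 and 92 expected counts, and was below Pou3f4 by 5.02 and 4.97 TPM. The 4 class III genes summed to 60.78 and 61.58 TPM, against 28.41 and 29.26 TPM for Pou2f1 and Pou4f1. The ratio of these sums was 2.14 and 2.10 (2.12 ± 0.0246). The sums cover 4 genes and 2 genes, so equal mean levels per gene would already give a ratio of 2. On the log2(TPM + 1) scale, the class III median was above the median of Pou2f1 and Pou4f1 by 0.55 and 0.66. A median of 2 genes lies midway between them, so the low Pou4f1 pulls it down. Each class III gene was below Pou2f1 by TPM in both libraries.

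The place of Pou2f1 at the head of that order rested on how its transcripts were counted. Without any length scaling, Pou3f3 led at 109 and 111 CPM (counts scaled to library size), Pou3f2 followed at 76.3 and 90.6 CPM, and Pou2f1 was in place 3 at 46.0 and 48.0 CPM. When only transcripts of 1000 bases or more were summed, the class III levels stayed as they were, while Pou2f1 had 19.16 and 19.94 TPM (19.55 ± 0.552) and was in place 3. Leaving out transcripts annotated as retained introns gave Pou2f1 20.7 TPM on average, also in place 3. With counts divided by the length of each gene's longest transcript, Pou2f1 was in place 5, and the ratio of class III to Pou2f1 and Pou4f1 was 9.31. Within class III, the pair Pou3f2 and Pou3f3 stayed above the other pair by CPM, where Pou3f1 had 22.8 and 16.7 and Pou3f4 14.9 and 12.3. The 3 other measures could not change the class III order. Each of these genes has 1 transcript, which is coding and longer than 1000 bases. The last 3 measures were chosen after the transcript values had been seen.

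**Figure D2:**
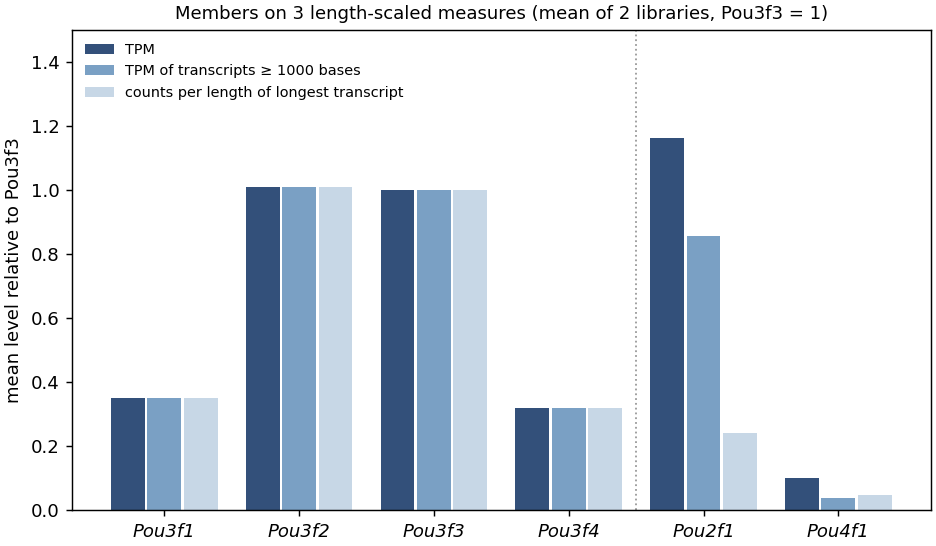
Mean level of each gene over both libraries relative to Pou3f3, which is set to 1 (y axis), on 3 length-scaled measures: TPM, TPM summed over transcripts of 1000 bases or more, and counts per length of the longest transcript. The class III bars could not change height across the measures, because each of these genes has 1 transcript. The Pou2f1 bar is above Pou3f3 by TPM and below it by both other measures.

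The transcripts of Pou2f1 show where its TPM came from. The coding transcript Pou2f1-209, of 2591 nucleotides and 16 exons, had 10.42 and 10.51 TPM, 39.5% ± 2.11 of the gene. Both values lie above its own deposited credibility intervals, 2.24 to 9.30 TPM and 3.80 to 10.39 TPM, and its posterior mean TPM, a second deposited estimate, was 5.8 and 7.31, or 22.5% of the gene. Next came Pou2f1-217, a 2-exon transcript of 592 nucleotides, with 5.86 and 6.55 TPM from only 44.2 and 71.43 counts. It made up 23.4% of the gene's TPM and 4.29% of its counts, and by posterior mean TPM, at 7.21 and 7.68, it was above Pou2f1-209 in both libraries. The retained-intron transcript Pou2f1-211, of 2139 nucleotides, had 3.51 and 3.97 TPM. By contrast Pou2f1-208 and Pou2f1-205, coding transcripts of 13022 and 13050 nucleotides, together held 38.4% ± 0.905 of the gene's counts but 8.0% ± 0.369 of its TPM. Of the 18 transcripts, 9 had TPM above 0 in both libraries and 6 were listed at 0 in both. Those 6 nevertheless held 15.5% and 10.8% of the gene's posterior mean TPM.

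Pou4f1 was also split. Its coding transcript Pou4f1-201, of 4445 nucleotides, had 0.81 and 0.83 TPM, nearly the same in both libraries. The non-coding Pou4f1-202, of 799 nucleotides, had 2.17 and 0.79 TPM from 23.23 and 12.29 counts. The whole difference in Pou4f1 TPM between the libraries thus lay in the short non-coding transcript, which held 72.8% of the gene's TPM in replicate 1 and 48.8% in replicate 2. No such split exists for the class III genes, whose TPM each come from 1 transcript.

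**Figure D3:**
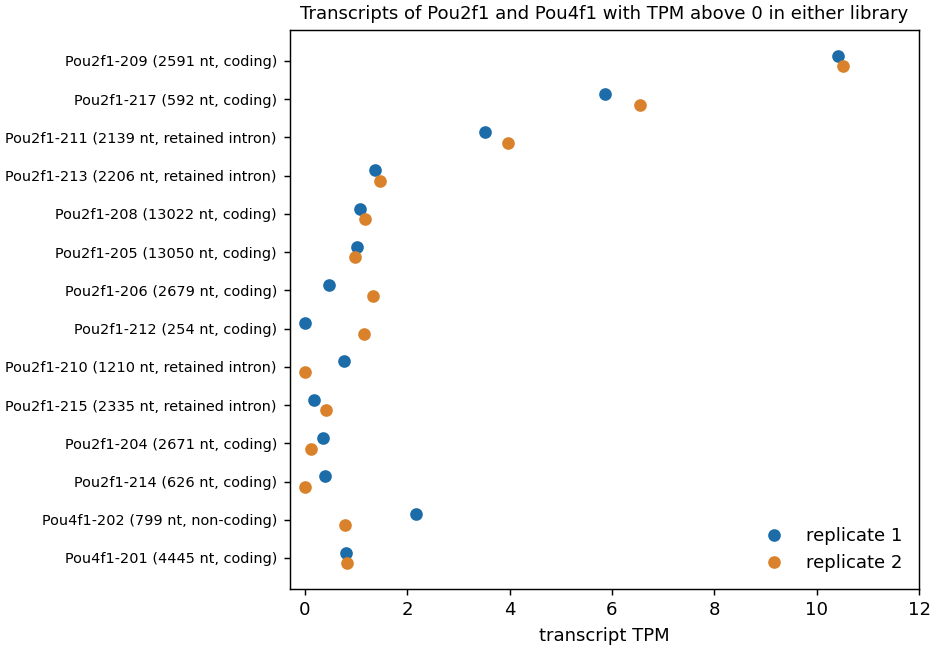
Transcript TPM (x axis) of each Pou2f1 and Pou4f1 transcript above 0 in either library, in replicate 1 and replicate 2, with transcript length and type beside the name. By TPM, Pou2f1-209 leads at 10.42 and 10.51, followed by the short Pou2f1-217 (an order that posterior mean TPM turns round), and for Pou4f1 the libraries differ in the short non-coding transcript and not in the coding one.

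The libraries were then compared gene by gene, as replicate 1 over replicate 2 on expected counts scaled by TMM. With 1 library on each side, this compares the libraries and not conditions, and the intervals cover counting error only. Pou3f1 was higher in replicate 1, at 22.8 CPM against 16.7 CPM in replicate 2, a log2 ratio of 0.45 (95% exact binomial interval 0.27 to 0.62). Pou3f4 lay in the same direction, at 14.9 against 12.3 CPM and a log2 ratio of 0.28 (0.07 to 0.49). Pou3f2 lay in the opposite direction, with a log2 ratio of -0.25 (-0.34 to -0.17). For these 3 genes the interval left out 0.

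Pou3f3 was close to even between the libraries, with a log2 ratio of -0.04 (-0.11 to 0.03), as was Pou2f1 at -0.06 (-0.18 to 0.05). Pou4f1 had a log2 ratio of 0.28 with a wide interval of -0.18 to 0.73 at its 169 counts. None of the 6 members passed 1.5-fold by counts, a fold that 13.6% of the 18297 genes with 10 or more counts passed in either direction. That share depended on depth. It was 7.76% of genes with 100 to 1000 counts, the class of Pou3f4 and Pou4f1, and 0.114% of genes with 1000 or more, the class of Pou3f1, Pou3f2, Pou3f3 and Pou2f1. Pou3f1, at 1089 counts, sits at the lower edge of that class, so each member was also set beside genes with 0.5 to 2 times its own counts, a range chosen after the values were seen. Of such genes, 2.08% were as far apart between the libraries as Pou3f1 or farther, 4.74% as far as Pou3f2, 17.3% as far as Pou3f4 and 74.0% as far as Pou3f3, against 64.3% for Pou2f1 and 47.3% for Pou4f1. By TPM, 1 of the 6 members passed 1.5-fold, Pou4f1 at a log2 ratio of 0.88, and so did 9.34% of genes with 100 to 1000 counts.

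**Figure D4:**
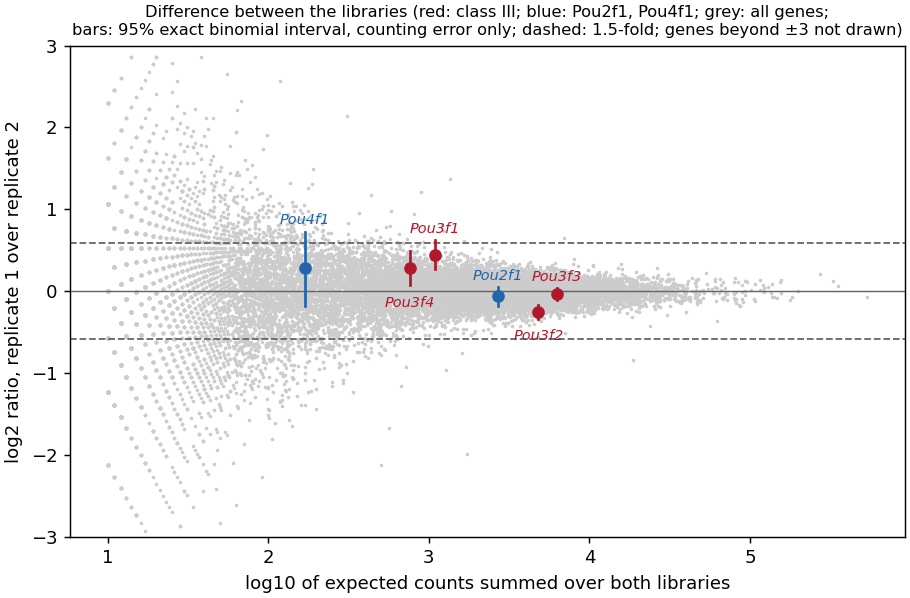
Log2 ratio of replicate 1 over replicate 2 by expected counts (y axis) against the log10 of counts summed over both libraries (x axis), with class III genes in red, Pou2f1 and Pou4f1 in blue and all genes with 10 or more counts in grey; bars are 95% exact binomial intervals. All 6 members lie within the dashed lines at 1.5-fold, with Pou3f1 the farthest from 0, at 0.45.

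Across the POU family list, 10 of 16 genes reached 1 TPM in both libraries, beside the 58.6% of protein-coding genes given above. After the class III genes and Pou2f1, the highest by TPM was Pou2f2, the class II paralog best known from B cells. It had 15.5 and 13.12 TPM, above Pou3f1 and Pou3f4. Its 424 and 476 expected counts were fewer than the 528 and 560.77 of Pou3f1, so its place above Pou3f1 depends on the length scaling. Pou6f1, a class VI gene of the nervous system, had 10.49 and 9.98 TPM. Hdx had 1.82 and 1.68 TPM and Pou5f2 had 1.52 and 1.26 TPM.

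At the low end, the pluripotency factor Pou5f1 had 1 and 1.38 expected counts and Pou4f2, the retinal ganglion cell paralog of Pou4f1, had 0 and 2. The pituitary factor Pou1f1, the epidermal and tuft cell factor Pou2f3 and the hair cell factor Pou4f3 had 0 counts in both libraries. A count of 0 allows up to 0.130 CPM in replicate 1 and 0.0893 CPM in replicate 2, taking 3 counts as the limit. The family summed to 119.47 and 117.82 TPM, of which the class III genes held 60.78 and 61.58 TPM. None of the 11 family genes with 10 or more counts passed 1.5-fold between the libraries. Over all genes with 10 or more counts, 13.6% passed it, and 0.114% of those with 1000 or more.

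**Figure D5:**
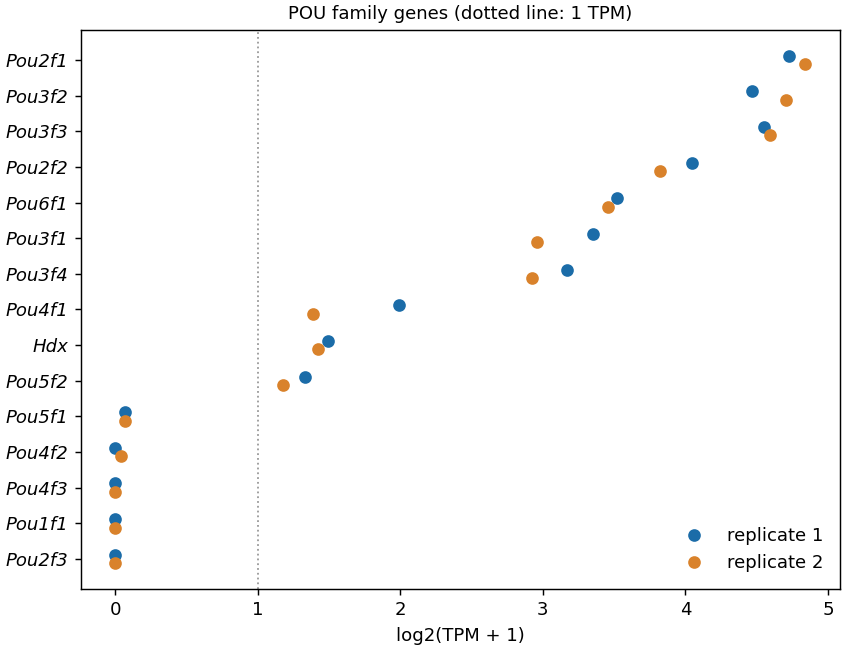
Levels of POU family genes as log2(TPM + 1) (x axis) in replicate 1 and replicate 2, with the dotted line at 1 TPM. The 4 class III genes and Pou2f1 are among the 7 highest, together with Pou2f2 and Pou6f1, and 3 genes are at 0 in both libraries.

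The neighbourhoods of the class III genes differed. Pou3f3 has a divergent partner, the long non-coding RNA gene Pantr1, on the opposite strand at chr1:42590782-42694842, with 925 bases between the genes. Pantr1 had 291.73 and 317.91 TPM (304.8 ± 18.5), 13.0 and 13.7 times the TPM of Pou3f3. In expected counts the genes were much closer, at 2247 and 3553 for Pantr1 against 2515 and 3740 for Pou3f3, a ratio of 0.893 and 0.95. Much of the TPM of Pantr1 came from Pantr1-209, a transcript of 615 nucleotides that held 55.8% and 52.9% of it. Pantr2, 3884 bases beyond the other end of Pou3f3 and also on the opposite strand, had 25.18 and 27.72 TPM.

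The antisense gene Gm2164 overlaps 330 exon bases of Pou3f1 and had 0 and 1.23 counts, and the ribosome assembly gene Utp11, 17504 bases away, had 43.75 and 49.92 TPM. Gm30731, near Pou3f2, and Gm44593, near Pou3f4, were not analysed here. Cd247, a T cell receptor subunit gene on the opposite strand, overlaps 3007 exon bases of Pou2f1 and had 1.95 and 1.29 TPM. Since strand handling was not given in the sources used here, reads in such overlaps cannot be told apart.

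Promoter windows of 300 bases were available in RefSeq (GRCm38.p6) for 5 of the 6 members: Pou3f2, Pou3f3, Pou3f4, Pou2f1 with 3 windows, and Pou4f1. The octamer ATGCAAAT, the element bound by POU proteins, was searched on both strands and matched in none of the 7 windows; 1.74% of 32851 windows hold it. CCAAT was searched on both strands after the windows had been read. It matched 2 times for Pou3f2, 3 times for Pou3f3, 3 times for Pou3f4 and 0 times in each window of Pou2f1 and Pou4f1. Of all windows, 37.4% hold it 1 or more times, so most windows hold none. It is held 2 or more times by 11.7% and 3 or more times by 3.37%. The parts upstream of the annotated gene start are shown, because they hold most of these matches; capitals mark CCAAT on the printed strand.
Pou3f2 promoter: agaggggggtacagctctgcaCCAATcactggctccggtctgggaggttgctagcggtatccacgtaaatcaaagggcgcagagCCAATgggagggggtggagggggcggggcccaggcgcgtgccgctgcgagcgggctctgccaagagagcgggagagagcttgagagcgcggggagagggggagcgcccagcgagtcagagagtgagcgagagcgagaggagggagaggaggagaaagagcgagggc
Pou3f3 promoter: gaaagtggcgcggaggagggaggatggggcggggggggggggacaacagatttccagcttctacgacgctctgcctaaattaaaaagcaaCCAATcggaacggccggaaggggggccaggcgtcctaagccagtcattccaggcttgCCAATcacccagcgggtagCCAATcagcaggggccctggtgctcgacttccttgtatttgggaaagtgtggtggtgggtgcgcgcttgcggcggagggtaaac
Pou3f4 promoter: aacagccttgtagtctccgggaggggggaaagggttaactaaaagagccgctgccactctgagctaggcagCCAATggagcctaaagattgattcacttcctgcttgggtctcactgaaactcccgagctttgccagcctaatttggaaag
They are chr4:22488367-22488616 on the minus strand for Pou3f2, chr1:42695518-42695767 on the plus strand for Pou3f3, within the 925 bases that part it from Pantr1, and chrX:110814129-110814279 on the plus strand for Pou3f4. These are matches of letters, and no binding was measured.

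Genes that work with POU factors were broadly present. Of 9 listed SOX, bHLH and zinc finger partners, 9 reached 1 TPM in both libraries, against 58.6% of all protein-coding genes. The progenitor and neuronal factors Sox11 and Sox4 were the highest, at 449.34 and 471.2 TPM and at 132.7 and 115.84 TPM. Pax6, a cortical progenitor factor, had 76.66 and 81.23 TPM, and Sox2, which pairs with POU factors on DNA in progenitors, had 47.96 and 40.7 TPM. Myt1l, a zinc finger factor of neurons, had 4.24 and 3.37 TPM. Of the list, 1 gene passed 1.5-fold between the libraries, the X-linked Sox3, at 15.27 and 7.94 TPM from 459 and 345 counts. Over all genes with 10 or more counts, 13.6% passed that fold, and 7.76% of those with 100 to 1000 counts, the class of Sox3.

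Of 7 listed cofactors, 6 reached 1 TPM, against 58.6% of all protein-coding genes. Hcfc1, a partner of Pou2f1 known from viral gene activation, had 71.1 and 72.33 TPM, and Pbx3 had 40.56 and 36.37 TPM. Pou2af1, the lymphoid coactivator of Pou2f1 and Pou2f2, had 0 counts in both libraries. The median log2(TPM + 1) was 5.10 for the cofactors and 5.50 for the partners, against 2.31 for all protein-coding genes and 1.59 for the POU family itself.

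Genes described as targets of class III factors differed widely in level. Of 9, 5 reached 1 TPM, close to the share of all protein-coding genes (58.6%). The highest were the radial glial gene Fabp7 at 470.66 and 505.53 TPM and the neuronal tubulin Tubb3 at 506.33 and 439.19 TPM. The progenitor gene Nes had 76.85 and 70.6 TPM and the Notch ligand Dll1 66.75 and 76.59 TPM. The hypothalamic hormone genes Crh, Avp and Oxt, whose neurons need Pou3f2 later in development, had 0 counts each in replicate 1 and 1 count each in replicate 2. Of the 5 genes listed for Pou2f1, 5 reached 1 TPM, with Snrpc at 249.15 and 250.03 TPM and Hist1h2bc at 41.54 and 38.67 TPM, while the U1 gene Rnu1a1 rested on 2.7 and 1.5 counts.

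Markers of other tissues known to express these factors were also measured, and their part in the members' levels was not tested. Their counts are set beside the 58.6% of protein-coding genes that reached 1 TPM in both libraries. For Schwann cells and neural crest, where Pou3f1 acts, 2 of 8 markers reached 1 TPM in both libraries; Sox10 had 1.05 and 0.97 TPM, and the list summed to 10.6 and 10.53 TPM. For epidermis and surface ectoderm, 6 of 8 did, with Krt8 at 16.52 and 13.89 TPM, and the sum was 46.72 and 47.59 TPM. Of that list, 2 genes passed 1.5-fold between the libraries by counts, Trp63 at 2.13 and 3.71 TPM and Grhl2 at 0.67 and 1.19 TPM, both lower in replicate 1. That fold was passed by 7.76% of all genes with 100 to 1000 counts, the class of both. For otic and periotic tissue, where Pou3f4 acts, 5 of 8 markers reached 1 TPM, with a sum of 16.81 and 16.19 TPM and Otol1 at 0 counts.

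Lists for tissues of Pou4f1 are set beside the 58.6% of protein-coding genes that reached 1 TPM. Among habenula and dorsal thalamus genes, 6 of 8 reached 1 TPM in both libraries, with Lhx9 at 26.76 and 27.51 TPM, Nr4a2 at 11.78 and 12.42 TPM, Chat at 0 counts and a sum of 76.16 and 75.64 TPM. Among cranial sensory ganglion genes, 4 of 9 did, with Isl1 at 26.85 and 27.44 TPM and a sum of 76.2 and 76.56 TPM, while Prph (0.16 and 0.27 TPM) was under 1 TPM. Among midbrain genes, 3 of 8 did, with Fgf8, which the anterior forebrain also expresses, at 17.55 and 14.69 TPM, En1 at 0.91 and 0.86 TPM and a sum of 26.79 and 25.4 TPM.

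For each class III gene the protein-coding gene nearest in level over both libraries was found by the distance in log2(TPM + 1). With 2 libraries this is a likeness of level and not of pattern. Mycbp2 was nearest to Pou3f3 at 22.54 and 23.15 TPM, Napg to Pou3f2 at 21.31 and 25.15 TPM, Thsd1 to Pou3f4 at 8 and 6.56 TPM and Col6a1 to Pou3f1 at 8.96 and 6.79 TPM.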

How the data were processed

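Total RNA-seq tables of 2 forebrain libraries were used, each of a separate embryo pool labelled as a biological replicate, with an input of 10 ng, a size range above 200 nucleotides and added spike-ins, per the labels. The deposited expected counts divide reads among transcripts and were rounded for count ratios. The deposited TPM and posterior mean TPM are scaled by transcript length over all entries of a table. The deposited FPKM are scaled by length and depth. The authors' deposited transcript tables also give the percent of each transcript in its gene, and the bounds of a credibility interval of TPM, treated here as a signal on the TPM scale. The deposited notes name mm10 and GENCODE M4; aligner, quantifier, versions and strand handling were not given in the sources used here.

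Gene names, types and positions came from GENCODE M21 (GRCm38); 42462 of 43346 Ensembl genes (98.0%) matched. The 26248 numeric and 97 spike-in entries stayed out of gene totals. Detection meant 1 TPM or more in both libraries. Library ratios used TMM factors of edgeR 4.0.16 (1.00 and 0.999), a prior of 0.5 counts and genes with 10 or more counts summed; the ratio step was tested on simulated data. No p-value was computed. Intervals and limits cover counting error only. Coding sequences were aligned with MAFFT 7.526. Alternatives were DESeq2 1.42.0 size factors, other scalings, pseudocounts and filters, and leaving out each library.

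The members and gene lists were chosen with earlier results of these data known. Named genes are the members, the POU family, the 3 highest genes and others of each list, neighbours within 20 kb and the gene nearest in level to each class III gene. Drgx was not matched by name and is not analysed here. Some genes that the lists count are not reported here by name.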

Additional observations from a re-analysis of the deposited data

How the results depend on the processing

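No paired analysis was possible because there is 1 group. A reversal was looked for only in the sign of the median difference, which stayed positive under its alternatives. Places in the order of levels did change, as did the order of Pou2f1-209 and Pou2f1-217, as given below. The cause was not tested except where the scaling itself is the change. TPM over Ensembl genes only, which leaves out spike-ins and numeric entries, gave 26.5 for Pou3f2, 26.2 for Pou3f3, 8.37 for Pou3f4 and 30.4 for Pou2f1. Posterior mean TPM gave 22.1 for Pou3f3, 29.1 for Pou2f1 and a class III to Pou2f1 and Pou4f1 ratio of 1.89. Transcripts of 1000 bases or more gave 19.55 for Pou2f1, 0.82 for Pou4f1 and a ratio of 3.0, with Pou3f2 in place 1, Pou3f3 in place 2 and Pou2f1 in place 3; without retained introns Pou2f1 was 20.71, the ratio 2.66 and the places the same. By CPM, Pou3f3 took place 1 and Pou2f1 place 3, the ratio was 4.53, and the class III shares were 8.73% for Pou3f1, 48.5% for Pou3f3 and 6.01% for Pou3f4. Counts per length of the longest transcript gave a ratio of 9.31 and put Pou3f2 in place 1, Pou3f3 in 2, Pou3f1 in 3, Pou3f4 in 4 and Pou2f1 in 5. Against Pou2f1 alone the ratio was 2.31, and a pseudocount of 0.1 gave a median difference of 0.77. Pou4f1 had a library log2 ratio of 0.88 by deposited TPM. Genes past 1.5-fold numbered 2486, against 6782 with no filter and 10 with 1000 or more counts. By counts, shares were 36.6% for Pou2f1-209, 4.29% for Pou2f1-217, 10.7% for Pou2f1-211, 21.8% for Pou4f1-202 and 78.2% for Pou4f1-201; by posterior mean TPM they were 22.5%, 25.6% and 12.6% for Pou2f1-209, Pou2f1-217 and Pou2f1-211. Leaving out each replicate in turn gave place 2 to 3 for both Pou3f2 and Pou3f3 and a ratio of 2.10 to 2.14; with 2 libraries this only returns each library's own value and says nothing of stability. Ratios between the libraries have no such value. Pou4f1, at 77 and 92 counts, is limited most by depth.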

Other observations

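With 1 library on each side, the class III genes did not all differ in the same direction. Of genes with 0.5 to 2 times the same counts, 17.3% were as far apart as Pou3f4 or farther. For Pou3f2 this share was 4.74% and for Pou3f1 2.08%, and whether the directions would recur was not tested. Pou3f1 and Pou3f4 were higher in replicate 1 and Pou3f2 was lower there, so the ratio of Pou3f2 and Pou3f3 to Pou3f1 and Pou3f4 by TPM was 2.53 in replicate 1 and 3.61 in replicate 2 (3.07 ± 0.764), while the sum of the 4 was 60.78 and 61.58 TPM.

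In Pou3f4, whose promoter window runs past the gene start, 2 of its 3 CCAAT matches lie outside the 151 upstream bases. CpG pairs numbered 24 in the window of Pou3f2, 18 in that of Pou3f3 and 15 in that of Pou3f4, against 32, 2 and 2 in the windows of Pou2f1 and 57 in the Pou4f1 window. The Pou4f1 window held more than 99.8% of windows. The median window held 7.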
